A study of Homo sapiens with 7 samples.

Results

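The endoplasmic reticulum membrane complex (EMC) is read here through 9 subunit genes, EMC1, EMC2, EMC3, EMC4, EMC6, EMC7, EMC8, EMC9 and EMC10. They were chosen by name after EMC10 had stood out between CHIR and DMSO in these same libraries, so that contrast of EMC10 is a description of the values that chose the family. All 9 are among the 21262 genes listed in all 3 single-cell tables, and 27981 genes are listed in at least 1 table. The subunit EMC5, whose gene is MMGT1, lay outside the rule and is given beside the members.

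The cells were heart cells grown from the established human embryonic stem cell line H1 and sequenced as single cells after a sort of live cells. The first library held day 15 cells treated with CHIR (CHIR99021), which blocks GSK3 and so turns on canonical Wnt signalling. The second held day 15 cells given the vehicle DMSO, and the third held day 11 cells, for which the labels name no treatment. How much CHIR was given, and when, is not in the labels. In all, 1 cell line and 1 library stand behind each group, so no difference below has a replicate check. By its title the series concerns the making of atrioventricular canal muscle cells by canonical Wnt signalling.

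The EMC sits in the membrane of the endoplasmic reticulum and inserts membrane proteins, above all tail-anchored proteins and the first segments of some receptors and channels. EMC3 and EMC6 form the core that moves a segment into the membrane, EMC2 and the paralogues EMC8 and EMC9 lie on the cytosolic side, and EMC1 is the large subunit with a long lumenal part. EMC7 and EMC10 have lumenal domains, and EMC10 also exists in a secreted form. The pore subunit of the heart's L-type calcium channel, CACNA1C, is known to be held by the complex while it is assembled.

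The promoter of EMC10 is shown because EMC10 is the member whose level stood apart. It comes from RefSeq on GRCh38.p14, chr19:50476257-50476556 on the plus strand, 250 bases before to 50 bases after the annotated gene start, printed 5′ to 3′. Capitals mark TGACGTCA, the palindrome known as the cAMP response element, which factors of the CREB and ATF families bind.

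EMC10 promoter: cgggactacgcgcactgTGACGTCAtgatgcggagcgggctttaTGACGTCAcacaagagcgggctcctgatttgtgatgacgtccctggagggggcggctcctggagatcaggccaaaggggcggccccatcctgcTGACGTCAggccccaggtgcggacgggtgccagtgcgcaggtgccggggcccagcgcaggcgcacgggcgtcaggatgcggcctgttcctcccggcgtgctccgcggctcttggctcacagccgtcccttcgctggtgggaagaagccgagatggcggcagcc

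TGACGTCA occurred 3 times in this window, beginning 233, 206 and 113 bases before the gene start. Of 35093 RefSeq promoters of the same length, 1.85% held the motif at least once and 1, that of EMC10 itself, held it at least 3 times (0.00285%). The motif was chosen after the sequence had been seen. Promoters were found for 8 of the 9 members, and 7 of the 7 others had no TGACGTCA. The shorter core TGACGT, searched on both strands, matched 7 times in EMC10, where each palindrome counts on either strand. It matched 1 time in EMC4 and once or more in 7.98% of promoters. The TCF and LEF motif of Wnt signalling, searched on both strands as CTTTG followed by AA, AT, TA or TT, had 0 matches in the EMC10 window against 13.7% of promoters with a match, and EMC6 had 1. AGATAA, bound by GATA factors, had 0 matches in the EMC10 window and at least 1 in 10.3% of promoters. The endoplasmic reticulum stress element, searched on both strands as CCAAT and CCACG with 9 bases between them, also had 0 matches in EMC10 and at least 1 in 0.0769% of promoters. These matches describe letters in 1 window, not binding.

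EMC10 lies on chromosome 19, at 50476507 to 50490871 of GRCh38.p14, and is annotated as protein-coding. Its span overlaps GARIN5A, named FAM71E1 in the deposited tables, at 50466788 to 50476848, so the promoter window also lies inside the span of GARIN5A. It also holds MYREM, a long noncoding RNA on the opposite strand, at 50486810 to 50488893. Of the 9 members, 7 overlap another annotated gene, EMC2 and EMC9 being the exceptions. The sources used here do not state whether counting used strand, so reads of a member and of a gene that overlaps it cannot be told apart.

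The CHIR, DMSO and day 11 libraries held 5607, 4015 and 5683 cells with 81076689, 65675862 and 75906387 unique molecular identifiers (UMIs), counts of captured transcripts. Levels are given as CPM, the UMIs of a gene per 1000000 UMIs of a class. The median cell had 12687, 15250 and 12689 UMIs. Ribosomal protein genes took 33.3%, 25.3% and 15.5% of all UMIs. The libraries shared 4 cell barcodes (CHIR and DMSO), 3 (CHIR and day 11) and 6 (DMSO and day 11). Cells were gated by summed marker UMIs. Muscle cells passed on 8 sarcomere and heart muscle markers such as TNNT2 and MYH6, and mesenchyme cells passed on 6 matrix markers such as COL1A1 and POSTN. The muscle class held 1343 CHIR cells (24.0%), 1888 DMSO cells (47.0%) and 3423 day 11 cells (60.2%), and the mesenchyme class held 3630, 1606 and 1281 cells. Cells over both gates were set apart as double positive, 393 with CHIR, 299 with DMSO and 641 at day 11. Summed muscle markers stood at 19644, 18717 and 22306 CPM in the muscle classes and at 708, 1417 and 1601 CPM in the mesenchyme classes. The lowest of the 8 muscle markers stood at 3.98 CPM in CHIR, 80.9 CPM in DMSO and 49.7 CPM in day 11 muscle cells. At least 1 muscle marker was thus much lower with CHIR, and the part of such differences in muscle values was not tested. The mesenchyme classes differed in make-up, since 4 smooth muscle markers summed to 519 CPM with CHIR, 2523 with DMSO and 4293 at day 11, and the part of this in mesenchyme values was not tested. CPM here counts transcript ends and was not scaled by gene length, though ratios against day 11 ran with gene length, as given below.

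EMC10 was the most abundant subunit transcript in CHIR muscle cells by a wide margin. Its CHIR level was 1058 CPM (95% counting interval 1044 to 1072), against 135 CPM in DMSO cells (130.3 to 139) and 181 CPM in day 11 cells (177 to 185). These levels rest on 21284, 3377 and 7190 UMIs. The CHIR level was 7.85 times the DMSO level (7.57 to 8.14) and 5.85 times the day 11 level (5.69 to 6.01). With DMSO, EMC10 was 0.745 times its day 11 level (0.715 to 0.776), a direction that depended on the scaling and is taken up below. Of 15833 genes set against each other between CHIR and DMSO muscle cells, 106 had a ratio at least that of EMC10 (EMC10 included), and 9 of the 4924 genes with at least 1000 UMIs did.

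The other 8 members stayed within 2-fold between CHIR and DMSO muscle cells. Of the 9 members, 1, EMC10, lay past 2-fold, beside 23.5% of all genes that lay past 2-fold in either direction and 8.53% that did so upwards. At 1.5-fold, 2 of the other 8 were past, EMC1 upwards and EMC4 downwards, beside 46.7% of all genes. These 1.5-fold calls changed with the processing. EMC4 was inside the limit at 0.742 without mitochondrial and ribosomal protein genes, at 0.695 with per-cell means and at 0.667 with TMM factors, and EMC1 was inside it at 1.44 in thinned cells. EMC8 was past it at 1.51 without those genes and at 1.55 in thinned cells. The median log2 ratio was -0.28 over the other 8 members and -0.02 over all genes. Summed, the other 8 members stood at 449 CPM with CHIR, 525 CPM with DMSO and 379 CPM at day 11.

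**Figure D1:**
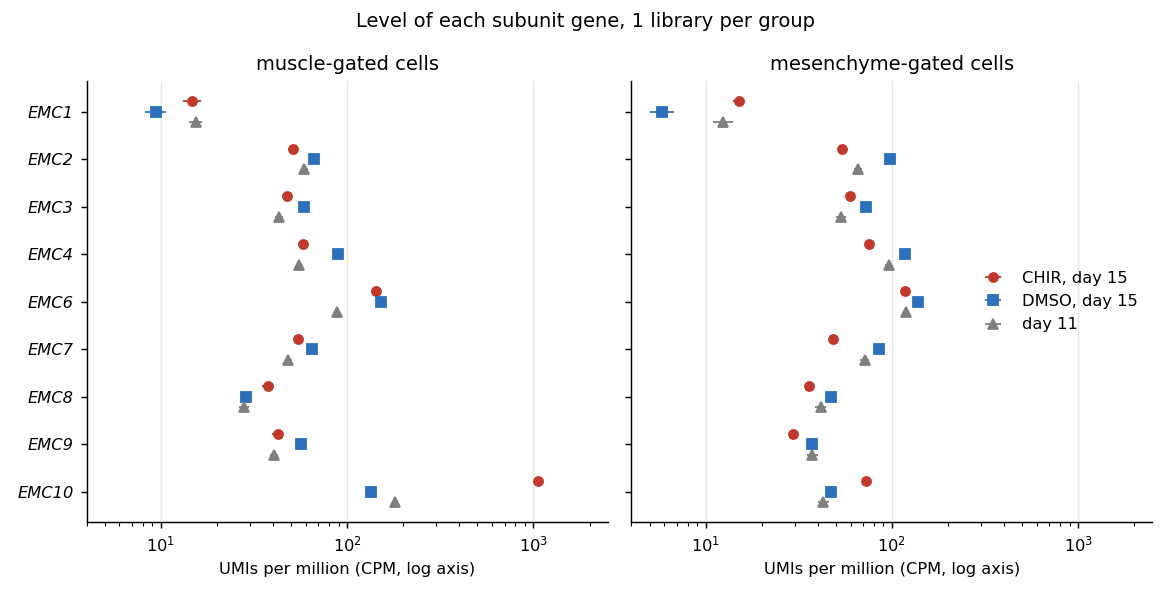
Level of each subunit gene in muscle-gated (left) and mesenchyme-gated cells (right). The x axis is CPM on a log scale, points are the CHIR, DMSO and day 11 libraries, and bars are 95% counting intervals. EMC10 in CHIR muscle cells, at 1058 CPM, lies to the right of every other point, and EMC1 is the lowest member in each library.

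Among the insertase core, EMC3, a member of the Oxa1 family of insertases, stood at 47.6 CPM with CHIR, 58.6 CPM with DMSO and 43.2 CPM at day 11 in muscle cells. EMC6, its partner in the core, was the highest of the other 8 at 144 CPM with CHIR, 151 CPM with DMSO and 88.6 CPM at day 11. The CHIR over DMSO ratio was 0.812 for EMC3 (0.748 to 0.882) and 0.949 for EMC6 (0.904 to 0.996), so EMC6 differed little between the day 15 libraries. Without mitochondrial and ribosomal protein genes in the totals, EMC6 turned to 1.08.

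EMC1, the large subunit, was the lowest member at 14.7 CPM with CHIR, 9.42 CPM with DMSO and 15.4 CPM at day 11. Its CHIR over DMSO ratio in muscle cells was 1.56 (1.31 to 1.86) and its DMSO over day 11 ratio 0.612 (0.524 to 0.712). CHIR over day 11 was 0.955 (0.829 to 1.10), so by UMI totals the DMSO level lay below the CHIR and day 11 levels. With TMM factors the EMC1 DMSO over day 11 ratio was 0.952, close to 1. MMGT1, the subunit outside the rule, was also lowest with DMSO by UMI totals, at 13.2 CPM with CHIR, 8.31 CPM with DMSO and 12.4 CPM at day 11. Its CHIR over DMSO ratio was 1.59 (1.32 to 1.92). Its DMSO over day 11 ratio of 0.668 lay close to the TMM factor of 0.642 for that contrast, so its order against day 11 also depended on the scaling. The antisense gene EMC1-AS1, which overlaps EMC1, stood at 3.13, 5.79 and 11.8 CPM in the CHIR, DMSO and day 11 muscle cells.

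On the cytosolic side, EMC2, a scaffold subunit, stood at 51.0 CPM with CHIR, 66.5 CPM with DMSO and 59.1 CPM at day 11. EMC8 stood at 37.7 CPM with CHIR, 28.5 CPM with DMSO and 28.0 CPM at day 11, so CHIR was the high library. Its paralogue EMC9 stood at 42.4 CPM with CHIR, 56.4 CPM with DMSO and 40.6 CPM at day 11, so DMSO was the high library. The paralogues thus lay on opposite sides between CHIR and DMSO, with ratios of 1.32 for EMC8 (1.19 to 1.47) and 0.751 for EMC9 (0.689 to 0.818). EMC2 had a ratio of 0.766 (0.708 to 0.829).

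EMC4, a membrane subunit, stood at 58.1 CPM with CHIR, 89.3 CPM with DMSO and 55.3 CPM at day 11, and DMSO was again the high library. Its CHIR over DMSO ratio of 0.651 (0.606 to 0.699) was the lowest of the 9. EMC7, the other subunit with a lumenal domain beside EMC10 and EMC1, stood at 54.3 CPM with CHIR, 64.8 CPM with DMSO and 48.5 CPM at day 11, a CHIR over DMSO ratio of 0.839 (0.776 to 0.906). In all, 6 of the other 8 members had intervals below 1 between CHIR and DMSO muscle cells and 2, EMC1 and EMC8, had intervals above 1. The share of all genes with such intervals was not taken, so these counts show nothing particular to the members.

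The make-up of the subunit transcripts shifted with EMC10. Of the UMIs of the 9 members in muscle cells, EMC10 held 70.2% with CHIR (69.7 to 70.7), 20.4% with DMSO (19.8 to 21.1) and 32.3% at day 11 (31.7 to 33.0). In mesenchyme cells it held 14.3%, 7.29% and 7.96%. The 9 members summed to 1507 CPM in CHIR muscle cells, 659.6 CPM in DMSO muscle cells and 559.6 CPM in day 11 muscle cells. EMC10 was the highest member in CHIR and day 11 muscle cells and stood behind EMC6 in DMSO muscle cells. In mesenchyme its rank was 3 with CHIR and 6 with DMSO and at day 11.

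**Figure D2:**
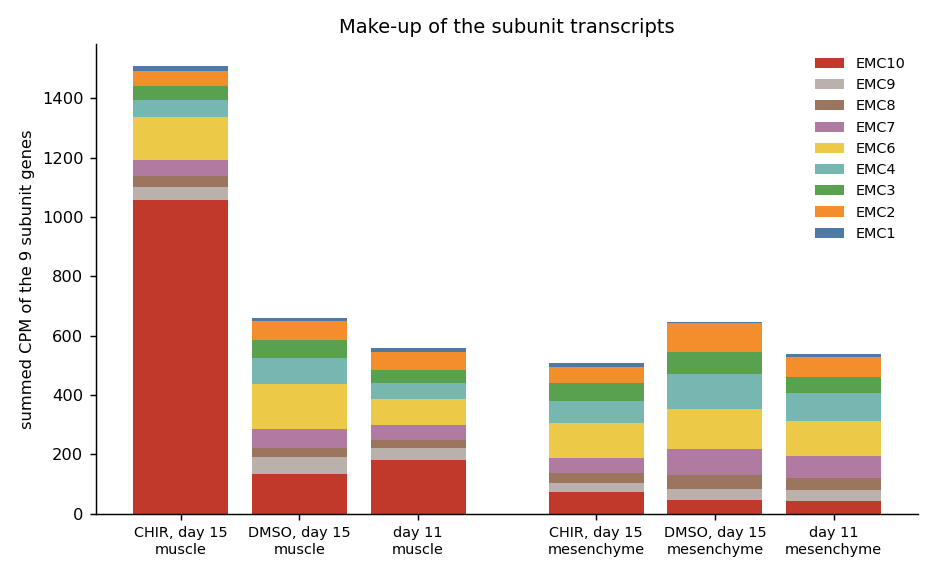
Summed CPM of the 9 subunit genes, split by gene, in muscle and mesenchyme cells of the CHIR, DMSO and day 11 libraries. The red part at the foot of each bar is EMC10, which makes up 70.2% of the CHIR muscle bar and 20.4% of the DMSO muscle bar, while the remaining parts sum to 449 and 525 CPM.

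EMC10 was higher in muscle than in mesenchyme in each library, and most so with CHIR. In mesenchyme it stood at 72.7 CPM with CHIR, 47.2 CPM with DMSO and 42.9 CPM at day 11. The muscle over mesenchyme ratio was 14.6 with CHIR (14.1 to 15.1), 2.86 with DMSO (2.69 to 3.04) and 4.22 at day 11 (3.94 to 4.53). For the other 8 members this ratio ran from 0.576 to 1.61 over the 3 libraries. EMC9 was on the muscle side in the CHIR library at 1.44 (1.32 to 1.57) and in the DMSO library at 1.51 (1.40 to 1.64), and at day 11 its interval held 1 (1.09, 0.999 to 1.19). EMC3 and EMC4 were on the mesenchyme side in each library. At day 11, where enough other cells were present, EMC10 stood at 31.3 CPM in 123 endoderm cells and 38.5 CPM in 64 endothelial cells. Double positive cells lay between the classes at 475 CPM with CHIR, 91.2 CPM with DMSO and 109 CPM at day 11. Their median UMIs were 23000, 20660 and 15220 against 14290, 12884 and 11491 in muscle cells, and the part of doublets in them was not tested.

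Free RNA from muscle cells can reach other droplets, so the muscle markers give a scale for it. In CHIR mesenchyme the 8 muscle markers stood at a median of 2.51% and at most 8.65% of their muscle level, and EMC10 at 6.87%. In DMSO mesenchyme the markers stood at a median of 2.58% and at most 16.8%, and EMC10 at 35.0%. At day 11 the markers stood at a median of 5.52% and at most 20.1%, and EMC10 at 23.7%. The CHIR share of EMC10 thus lay inside the range of the markers, and the DMSO and day 11 shares lay above it. Taking away the median marker share left 46.1, 43.7 and 32.9 CPM of EMC10 in CHIR, DMSO and day 11 mesenchyme. Taking away the highest marker share left -18.9, 24.5 and 6.58 CPM, so none of the CHIR level remained and the order of CHIR and DMSO turned.

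Between CHIR and DMSO mesenchyme, the EMC10 ratio was 1.54 (1.45 to 1.64), and how much of it free muscle RNA carries was not tested beyond these values. Of the 9 members, 1 lay past 2-fold there, beside 33.2% of all genes in either direction, and it was EMC1. EMC1 stood at 15.2 CPM in CHIR mesenchyme, 5.84 CPM in DMSO mesenchyme and 12.4 CPM in day 11 mesenchyme, a CHIR over DMSO ratio of 2.60 (2.21 to 3.08). MMGT1 lay at 1.54 (1.36 to 1.76). EMC2 was at 0.552 (0.524 to 0.582), EMC7 at 0.564 (0.533 to 0.597) and EMC4 at 0.643 (0.614 to 0.673), so these 3 were low with CHIR. EMC3, EMC6, EMC8 and EMC9 lay from 0.769 to 0.857. Against day 11 mesenchyme, 0 of the 9 members lay past 2-fold with CHIR, beside 40.0% of all genes, and 1 of 9 with DMSO, EMC1 at 0.471 (0.388 to 0.572), beside 41.4%. That last call was lost at 0.534 without mitochondrial and ribosomal protein genes in the totals, at 0.699 with TMM factors and at 0.735 with median-of-ratios factors. Upwards, EMC2 lay past 2-fold instead at 2.19 with TMM factors and 2.30 with median-of-ratios factors, and EMC3 at 2.03 and 2.14. Beside them, 11.1% and 13.0% of all genes lay past 2-fold upwards under these 2 scalings. The EMC1 ratio between CHIR and DMSO mesenchyme stayed past 2-fold under 11 of 11 settings, from 2.24 to 3.04.

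**Figure D3:**
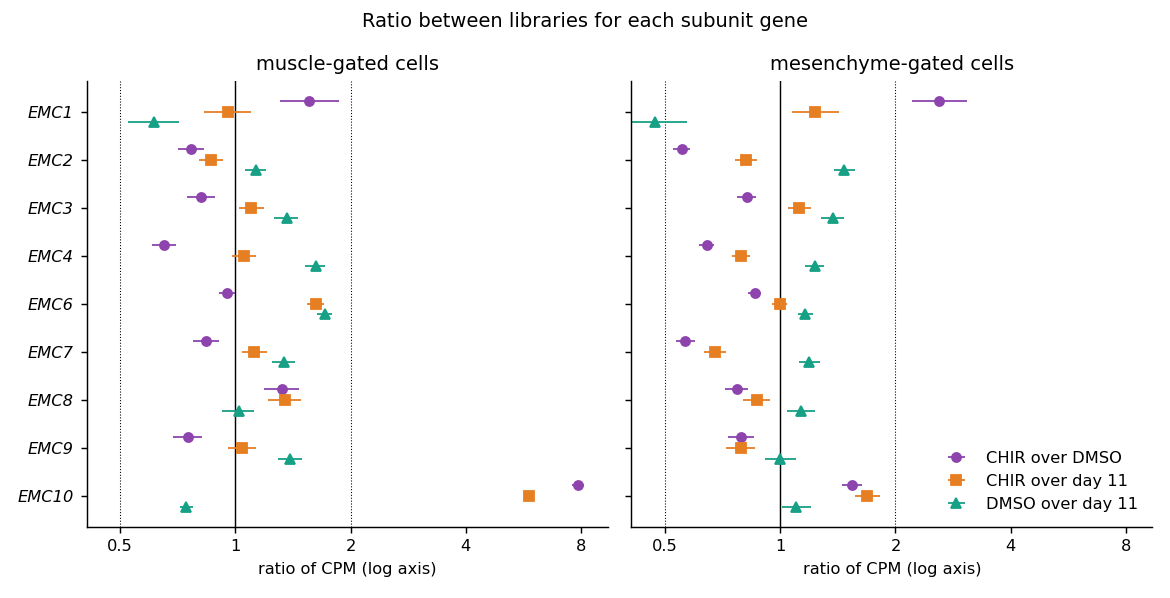
Ratios of CPM between libraries for each subunit gene in muscle-gated (left) and mesenchyme-gated cells (right), on a log axis, with 95% counting intervals and dotted lines at 0.5 and 2. In muscle cells EMC10 lies at 7.85 for CHIR over DMSO and 5.85 for CHIR over day 11, while the other 8 members lie between 0.612 and 1.71 over the 3 contrasts, which share libraries.

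The contrasts of CHIR and of DMSO with day 11 use the same day 11 library, so they are not independent of each other. Between CHIR and day 11 muscle cells, 1 of the 9 members, EMC10, lay past 2-fold, beside 47.6% of all genes in either direction and 5.01% upwards. The other 8 lay from 0.863 for EMC2 to 1.62 for EMC6. Between DMSO and day 11 muscle cells, 0 of the 9 lay past 2-fold, beside 42.6% of all genes, with EMC1 lowest at 0.612 and EMC6 highest at 1.71. Against day 11 the median gene was low, with a median log2 ratio of -0.77 for CHIR and -0.68 for DMSO. The log2 ratios also ran with annotated gene length over genes, with Spearman rho of -0.43 and -0.62, beside 0.18 between CHIR and DMSO. Genes are not independent replicates, and the part of this in the members' ratios was not tested.

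Scaling by TMM factors, which centre the bulk of genes, moved the day 11 contrasts of muscle cells by 0.70 (CHIR) and 0.64 (DMSO) on the log2 scale and the CHIR over DMSO contrast by 0.04. Relative to that shift, EMC10 was at 9.49 between CHIR and day 11 and at 1.16 between DMSO and day 11, so the DMSO direction turned. Under the same factors EMC6 and EMC8 also lay past 2-fold between CHIR and day 11, at 2.63 and 2.18, beside 14.8% of all genes upwards. Between DMSO and day 11, 5 of the 9 members, EMC3, EMC4, EMC6, EMC7 and EMC9, then lay past 2-fold upwards, beside 13.8% of all genes upwards. In muscle cells EMC1 and EMC2 turned to above 1 between CHIR and day 11 under these factors, and EMC10 alone turned between DMSO and day 11. For the remaining members in muscle, TMM scaling moved the size of the ratio and not its side. In mesenchyme, 5 members (EMC2, EMC4, EMC6, EMC8 and EMC9) changed side between CHIR and day 11 with TMM factors. With median-of-ratios factors 6 did, EMC7 being the addition. Between DMSO and day 11 mesenchyme, EMC9 changed side under both. The share of all genes that changed side was not taken for any of these contrasts. Between CHIR and day 11 mesenchyme, the median log2 ratio over all genes moved from -0.55 by UMI totals to -0.01 with TMM factors. Between CHIR and DMSO muscle cells, 0 of the other 8 members passed 2-fold under any of 11 settings, the reported one included. Beside them, 23.4% to 24.9% of all genes lay past 2-fold either way under the scalings for which that share was taken. EMC10 ran from 7.55 to 8.94 over the 11 settings, which all use the same CHIR and DMSO libraries.

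In single CHIR muscle cells, the high EMC10 level was spread over nearly the whole class. EMC10 per 10000 UMIs of a cell had a median of 10.2 in CHIR cells, 1.16 in DMSO cells and 1.41 in day 11 cells. Its 5th and 95th percentiles ran from 3.05 to 24.7 with CHIR, from 0 to 4.11 with DMSO and from 0 to 5.54 at day 11. Of the CHIR muscle cells, 90.1% lay above the 95th percentile of DMSO cells and 81.6% above that of day 11 cells. In turn, 4 of 1888 DMSO cells and 33 of 3423 day 11 cells lay above the CHIR median. The highest single cell of all, at 62.3, was a day 11 cell, against 50.9 for the highest CHIR cell and 19.7 for the highest DMSO cell. With each muscle cell thinned to 5000 UMIs, 96.3% of CHIR cells (95.1 to 97.3), 47.2% of DMSO cells (44.9 to 49.5) and 55.1% of day 11 cells (53.4 to 56.8) held an EMC10 UMI. Thinning left out 18, 65 and 132 shallower cells, and the shares without thinning were 99.3%, 78.9% and 79.2%. In thinned mesenchyme cells the shares were 29.0%, 21.1% and 17.1%. The variance over the mean in thinned muscle cells was 2.70 with CHIR, 1.19 with DMSO and 2.10 at day 11, where 1 is the value of counting noise alone.

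**Figure D4:**
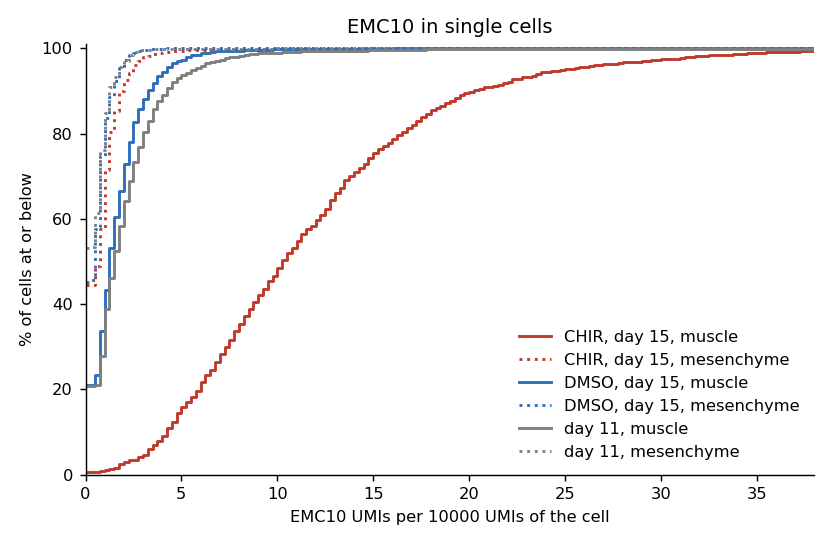
Cumulative share of cells by EMC10 UMIs per 10000 UMIs of the cell, for muscle (solid) and mesenchyme cells (dotted) of the CHIR, DMSO and day 11 libraries. A curve further right means higher levels, and the few cells beyond the end of the x axis are not drawn. The CHIR muscle curve, with a median of 10.2, lies apart from the DMSO and day 11 muscle curves, whose medians are 1.16 and 1.41.

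Within CHIR muscle cells EMC10 was high in each subset examined. It stood at 1051 CPM in the 1032 cells with a UMI of TBX2 or TBX3, T-box repressors of the atrioventricular canal, and at 1087 CPM in the 311 cells without. Cells with a UMI of NPPA, a chamber muscle peptide, stood at 1083 CPM and cells without at 1049.5 CPM. Cycling CHIR muscle cells were lower, at 790.0 CPM (756 to 825) against 1098 CPM (1082 to 1113) in the rest, while the other 8 members summed to 493 and 443 CPM in them. By level of the 8 muscle markers, EMC10 was at 871, 1025 and 1341 CPM in the lowest, middle and highest of 3 equal groups of CHIR cells, and the other 8 members at 447, 445 and 457 CPM. Such an order was absent at day 11, with 186, 172 and 186 CPM, and small with DMSO, with 123, 140.2 and 144 CPM. By depth, EMC10 was at 1362, 1152 and 863 CPM in the CHIR cells with the fewest, middle and most UMIs, and DMSO cells had 177, 142 and 113 CPM in the same order. Even the deepest CHIR cells thus stood above the shallowest DMSO cells. The groups by TBX2 or TBX3, NPPA, cycling and muscle markers were not matched for depth. Cells with a UMI of a gene can be deeper than cells without. The part of depth in how these groups compare was not tested.

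From cell to cell, correlations of EMC10 with the other members were near 0. Over thinned muscle cells, Pearson's r between EMC10 and each other member lay from -0.054 to 0.058 in the 3 libraries, over 1325 CHIR, 1823 DMSO and 3291 day 11 cells. These counts are sparse, with a mean of 0.745 UMIs per thinned CHIR cell for EMC6 and under that for the other 7, so values near 0 say little. With TNNT2, a muscle troponin, r was 0.259 in CHIR cells, 0.021 in DMSO cells and -0.011 in day 11 cells. EMC10 itself had a mean of 5.74, 0.682 and 0.942 UMIs per thinned cell in these libraries. The part of its sparser DMSO and day 11 counts in the lower r was not tested. Across 14 profiles of library and class, which share libraries, Pearson's r of log2(CPM + 1) with EMC10 was highest for EMC6 and EMC9 among the members (0.27 each) and lowest for EMC4 (-0.67). EMC1 was left out of this, being under 20 CPM in every profile.

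By the same measure over 9731 genes, the profiles most like EMC10 were those of NEFL, a neurofilament subunit (r = 0.948), TRDN-AS1, an RNA antisense to triadin (0.944), and AP000550.1 (0.941). NEFL stood at 71.9 CPM in CHIR muscle, 18.7 CPM in DMSO muscle and 14.1 CPM in day 11 muscle. The least like were TGIF1, a homeobox repressor (-0.942), PDLIM2 (-0.934) and SIVA1 (-0.933). PDLIM2 stood at 20.2 CPM in CHIR muscle, 91.1 CPM in DMSO muscle and 83.8 CPM in day 11 muscle. These values describe which profiles look alike over 14 points.

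Genes beside EMC10 on chromosome 19 did not share its ratio. Of the 5 neighbours taken on either side, 6 could be set between CHIR and DMSO muscle cells. FAM71E1, which overlaps the start of EMC10, stood at 6.31 CPM with CHIR and 7.79 CPM with DMSO, a ratio of 0.811 (0.643 to 1.02). JOSD2, on the other side, stood at 13.8 CPM with CHIR and 30.5 CPM with DMSO, a ratio of 0.454 (0.394 to 0.521). POLD1 was at 1.12 (0.938 to 1.33), NR1H2 at 0.749 (0.612 to 0.914), SPIB at 0.700 (0.370 to 1.29) and LRRC4B at 0.643 (0.532 to 0.776). MYBPC2 had 3 UMIs in each of the CHIR and DMSO muscle classes. The name MYREM is not among the rows of the tables. A row named AC020909.2, next but 1 after EMC10 in the tables and not placed by the annotation used here, was abundant in muscle cells. It stood at 1924 CPM with CHIR, 2877 CPM with DMSO and 6089 CPM at day 11, so it lay on the other side from EMC10 between CHIR and DMSO, with a ratio of 0.669 (0.661 to 0.677), and between CHIR and day 11, at 0.316 (0.313 to 0.319). Between DMSO and day 11 it was at 0.473 (0.469 to 0.477), and EMC10 at 0.745 was low with DMSO too. The row is named after its values were seen. Whether reads of that row and of EMC10 were shared was not tested.

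**Figure D5:**
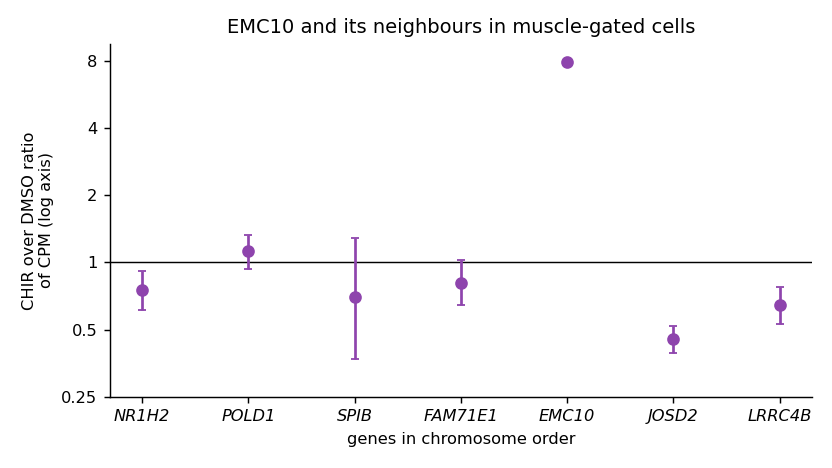
CHIR over DMSO ratio of CPM in muscle-gated cells for EMC10 and the 6 neighbouring genes with enough UMIs, in chromosome order, on a log axis with 95% counting intervals. EMC10 lies at 7.85 and the neighbours between 0.454 and 1.12.

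The wider machinery was given by lists. Of 34 genes of membrane insertion and translocation, 34 were measured in CHIR and DMSO muscle cells, 2 lay past 2-fold upwards and 1 downwards, beside 8.53% and 15.0% of all genes. Their median log2 ratio was 0.11, against -0.02 over all genes. NCLN, a partner of the multipass translocon, stood at 13.8 CPM with CHIR and 6.03 CPM with DMSO, a ratio of 2.28 (1.87 to 2.80). The translocation subunit SEC62 stood at 107 CPM with CHIR and 235 CPM with DMSO, a ratio of 0.456 (0.434 to 0.479). GET4, of the tail-anchor pathway, was the other one upwards, on only 56 UMIs in all (2.42, 1.36 to 4.46), and is named after its value was seen. Elsewhere in the tail-anchor pathway, the receptor subunits GET1 and CAMLG lay at 0.547 (0.508 to 0.588) and 1.63 (1.54 to 1.72), also named after their values were seen. Of 16 genes of the unfolded protein response, 1 lay past 2-fold upwards and 0 downwards, with a median log2 ratio of 0.37. It was HSPA5, the main lumenal chaperone, at 224 CPM with CHIR and 111 CPM with DMSO, a ratio of 2.02 (1.93 to 2.12). Of 5 genes for clients of the complex and for the channel subunit CACNB3, 4 were measured and 0 lay past 2-fold. CACNA1C, named after its values were seen, stood at 30.1 CPM in CHIR muscle, 28.2 CPM in DMSO muscle and 484 CPM in day 11 muscle. Its CHIR over DMSO ratio was 1.07 (0.957 to 1.19), while CHIR over day 11 was 0.0622 (0.0573 to 0.0675) and DMSO over day 11 was 0.0582 (0.0539 to 0.0628), in contrasts that ran with gene length as given above. In mesenchyme CACNA1C stood at 12.2 CPM with CHIR, 3.82 CPM with DMSO and 102 CPM at day 11, a CHIR over DMSO ratio of 3.21 (2.62 to 3.94).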

How the data were processed

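Cell Ranger 6.1.1 and GRCh38 are named for the 3 single-cell libraries, per the submitters' processing notes, with R 4.1.0 and Seurat 4.3.0 added for day 11. The authors deposited UMI counts, whole numbers with no scaling, for each gene in each cell. The sources used here do not say whether intron reads were counted, nor on which strand. Per the labels, the libraries came from a 10x kit for transcript ends, and the day 11 sample carries a protocol that speaks of day 15. The H3K27ac peak list and the input chromatin were not analysed here.

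The members and all lists were chosen with earlier results of these data known. Marker panels were fixed, and the gates were set after seeing the files. They were 50 muscle, 10 mesenchyme, 20 endoderm, 8 endothelium and 4 cell cycle marker UMIs per 10000 UMIs of a cell, and no member is in a panel. Between 0.5 and 2 times the muscle gate lay 296 CHIR, 595 DMSO and 642 day 11 cells. UMIs were summed per class and divided by the total (CPM). Ratios have exact conditional binomial (Clopper-Pearson) 95% intervals, CPM exact Poisson and shares exact binomial ones, and none covers more than counting error. Since each group is 1 library, no p-value or standard error is given. The share of all genes past 2-fold was taken over genes in both tables whose UMIs reached 20 in the 2 libraries together, with 0.5 added to each count. Named were all members, MMGT1, 3 genes at either end of the likeness measure, up to 5 neighbours on either side, and list genes past 2-fold between CHIR and DMSO muscle cells with at least 200 UMIs. Other list genes named are marked.

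Doublets were kept. Scrublet (scanpy 1.11.5) called 0 CHIR cells, 220 DMSO cells (5.48%) and 1 day 11 cell, so it did not work in the CHIR and day 11 libraries. TMM factors came from edgeR 4.0.16, used for scaling only. Other steps used numpy 2.4.6, scipy 1.17.1 and pandas 2.3.3, and the ratio code was checked on simulated data. Promoters came from RefSeq (GRCh38.p14).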

Additional observations from a re-analysis of the deposited data

Results flagged for a closer look

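Some members lay on opposite sides of 1 in muscle and mesenchyme cells under the same contrast, with counting intervals that exclude 1 in both. None of these differences was tested, since each library stands alone. The smooth muscle marker sums given for the mesenchyme classes also differed between libraries, and their part in these values was not tested. EMC8 was at 1.32 between CHIR and DMSO in muscle cells and at 0.769 (0.717 to 0.825) in mesenchyme cells, and the sides held under 11 of 11 settings. EMC7 was at 1.12 between CHIR and day 11 in muscle cells and at 0.674 (0.632 to 0.720) in mesenchyme cells, with opposite sides under 10 of 11 settings. EMC8 was at 1.35 and 0.868 (0.800 to 0.942) in the same contrast and classes, with opposite sides under 8 of 11. EMC10 was at 0.745 between DMSO and day 11 in muscle cells and at 1.10 (1.01 to 1.20) in mesenchyme cells, with opposite sides under 9 of 11.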

How the results depend on the processing

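Under 11 settings EMC10 stayed past 2-fold in muscle cells between CHIR and DMSO and between CHIR and day 11. Leaving mitochondrial and ribosomal protein genes out of the totals gave 8.94 for CHIR over DMSO, 7.71 for CHIR over day 11 and 0.862 for DMSO over day 11. Doubled gates gave 7.55 and 5.66 for CHIR over DMSO and CHIR over day 11, and thinned cells gave 8.42 and 6.1. Leaving out cycling cells gave 6.02 for CHIR over day 11. TMM factors gave 9.49 for CHIR over day 11 and 1.16 for DMSO over day 11, and median-of-ratios factors gave 9.37 and 1.15, so the DMSO over day 11 direction turned under both. Halved gates, per-cell means, removal of called doublets and of the 6% highest doublet scores, and barcodes shared between libraries left out (chosen after seeing the data) moved EMC10 by less than its counting interval in CHIR over DMSO. For EMC10 in mesenchyme, CHIR over day 11 passed 2-fold with TMM factors, at 2.45 against 1.69 as reported, beside 13.7% of all genes upwards with those factors. Of the calls past 2-fold over all muscle genes between CHIR and DMSO, 36.2% were upwards, against 52.6% without mitochondrial and ribosomal protein genes. Against day 11 the upward part was 10.5% (CHIR) and 8.73% (DMSO), against 35.8% and 37.7% with TMM factors. The share of muscle cells with an EMC10 UMI was 99.3% with CHIR, 78.9% with DMSO and 79.2% at day 11 without thinning, and 98.2%, 64.3% and 69.0% at 8000 UMIs. By Spearman correlation NEFL had 0.93 with EMC10, and IRF2BPL, PRNP and ATP1B1 led. Of 510 values of the other members and of EMC10 in mesenchyme, 150 moved past their counting interval. No paired analysis was possible because each group had 1 library, and no library could be left out. The cause of these shifts was not tested.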
